A study of Mus musculus with 4 samples.

Results

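The transcripts described here are Gas5 and 8 further noncoding host transcripts of small nucleolar RNAs (snoRNAs), namely Snhg1, Snhg3, Snhg5, Snhg6, Snhg8, Snhg12, Zfas1 and 2410006H16Rik. They were taken by gene symbol, 9 of the 55335 genes in the count table. The libraries came from AB2.2 mouse embryonic stem cells (mESCs), grown on mouse embryonic fibroblast feeders in serum medium with leukemia inhibitory factor and the inhibitors CHIR99021 and PD0325901. There were 2 control libraries and 2 libraries from cells given 50 mM lactate for 24 h, all of total RNA from this 1 cell line as grown on feeders. The paper does not describe removal of the feeders, and the labels do not say that the libraries of a group came from separate cultures. The set was chosen by role, but with the measured log2 fold changes between these same lactate and control libraries known, in raw and in RSEM counts, Gas5 being lower with lactate. The differences between control and lactate below are therefore given as a description, with the standard error (SE) of each, and support nothing beyond these libraries.

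A snoRNA host gene carries its functional RNA in its introns. After splicing, the introns are trimmed to snoRNAs, which guide chemical modification of ribosomal RNA: those with C and D boxes direct ribose methylation, those with H and ACA boxes direct pseudouridylation. The exons of the noncoding hosts encode no conserved protein. Many of these hosts begin with a terminal oligopyrimidine (TOP) tract like ribosomal protein mRNAs, and their spliced exons are ribosome-bound and degraded by nonsense-mediated decay (NMD). Gas5 was named for its accumulation in growth-arrested cells, and its exonic RNA has been described as a decoy for the glucocorticoid receptor.

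In the mm10 assembly (GRCm38; GENCODE M21 annotation) the hosts lie at chr1:161034422-161038539 (Gas5, plus strand, 25 annotated transcripts), chr19:8723475-8726443 (Snhg1, plus, 18 transcripts), chr4:132348014-132353686 (Snhg3, minus, 5), chr9:88521050-88522929 (Snhg5, minus, 6), chr1:9941959-9944118 (Snhg6, minus, 5), chr3:123507552-123508404 (Snhg8, minus, 3), chr4:132308623-132311024 (Snhg12, plus, 10), chr2:167062934-167065862 (Zfas1, plus, 5) and chr11:62602877-62604807 (2410006H16Rik, plus, 1). Together they contain 33 snoRNAs of 60 to 205 bases. Gas5 holds 9, Snhg1 8, Snhg12 4, Zfas1 and 2410006H16Rik 3 each, Snhg3 and Snhg5 2 each, and Snhg6 and Snhg8 1 each. A C box, searched as ATGATGA or GTGATGA within 30 bases of the left end on the snoRNA's own strand, together with a D box, CTGA within 30 bases of the right end, was found in 21 of the 33 (63.6%), against 308 of all 1507 annotated snoRNAs (20.4%). Sequences are shown for the snoRNA with the largest decrease in Gas5, the most abundant in Gas5, the largest decreases in Snhg1, Zfas1 and 2410006H16Rik, and the near-identical pair in Snhg5, which includes the only snoRNA of the 33 with a positive change. They are from GENCODE M21, in the reading direction, with the boxes in capitals.
Gm26224 (in Gas5, chr1:161035394-161035473, plus strand): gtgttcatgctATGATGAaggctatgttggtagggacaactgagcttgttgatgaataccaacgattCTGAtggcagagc
Gm22357 (in Gas5, chr1:161036057-161036139, plus strand): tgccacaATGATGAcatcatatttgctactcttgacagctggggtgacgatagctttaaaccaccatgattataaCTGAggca
Gm24452 (in Snhg1, chr19:8724531-8724602, plus strand): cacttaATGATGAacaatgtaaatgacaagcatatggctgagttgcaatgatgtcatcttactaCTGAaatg
Gm25878 (in Zfas1, chr2:167063473-167063565, plus strand): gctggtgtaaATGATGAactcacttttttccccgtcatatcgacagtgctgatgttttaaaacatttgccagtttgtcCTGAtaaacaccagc
Snord49a (in 2410006H16Rik, chr11:62603450-62603521, plus strand): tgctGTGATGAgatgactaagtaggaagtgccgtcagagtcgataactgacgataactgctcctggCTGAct
Snord50a (in Snhg5, chr9:88521529-88521600, minus strand): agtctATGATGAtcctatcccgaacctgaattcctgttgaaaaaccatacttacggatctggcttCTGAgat
Snord50b (in Snhg5, chr9:88521797-88521868, minus strand): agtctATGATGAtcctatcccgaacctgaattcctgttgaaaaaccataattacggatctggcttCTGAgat
The Snhg5 pair differed at 1 of 72 bases, and the Snora73a and Snora73b pair of Snhg3 at 7 of 205, so the division of reads within these pairs is uncertain.

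The libraries held 18067562 to 19077885 counts on genes, and 15738305 to 16682829 expected counts (the estimates of RSEM, which assigns reads to annotated transcripts). Mitochondrial genes took 5.48% and 5.72% of the counts in the libraries numbered 1 and 2.43% and 2.82% in those numbered 2. The summed level of 10 mESC markers was 5785 and 6192 CPM (counts scaled to the library total) in control and 6151 and 6991 CPM in lactate, and that of 12 feeder fibroblast markers was 497, 717, 497 and 561 CPM in the same order. None of either list was called by edgeR or DESeq2, with 4 and 2 at an unadjusted p under 0.05 in edgeR. At that level 2186 of all 18661 genes tested were higher and 2125 lower. The smallest p-values among the mESC markers belonged to Sox2 (0.56 ± 0.14), Zfp42 (0.52 ± 0.14), Klf4 (0.39 ± 0.13) and Utf1 (-0.54 ± 0.18), given as log2 fold change ± SE. Among the feeder markers they belonged to Pdgfrb (0.56 ± 0.15) and the collagen genes Col3a1 (-0.90 ± 0.24), Col1a2 (-0.56 ± 0.28) and Col5a1 (-0.29 ± 0.17). Fewer cells of a type and less RNA per cell cannot be told apart in bulk RNA.

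Gas5 was downregulated upon lactate supplementation. Its raw counts were 2014 and 2232 in control and 857 and 1209 in lactate, or 117 ± 0.832 CPM against 53.7 ± 10.7 CPM (SD, n = 2 each; CPM scaled by TMM factors). The lactate libraries were both below the control libraries, and the log2 fold change was -1.12 ± 0.17 (SE). Gas5 was the only host that met the call rule of adjusted p under 0.05 and more than 2-fold in edgeR, and by a narrow margin (adjusted p = 0.0494). Of all 18661 genes tested, 0.348% were called lower and 0.552% higher, and since the choice of Gas5 used this contrast nothing is read from its call. The median change of the 9 hosts was 0.05, against 0.01 for all genes.

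Snhg1, whose introns hold the second-largest group of snoRNAs here, went the other way. It had 1318 and 2091 counts in control and 2136 and 3861 in lactate, a log2 fold change of 0.74 ± 0.29. Both lactate libraries were above both control libraries in CPM (76.2 and 110 against 115 and 196), although the highest control and the lowest lactate library nearly touched. Of all genes, 27% lay above without overlap in this way, and 25.9% below. 2410006H16Rik, the host of Snord49a, Snord49b and Snord65, had 601 and 981 counts against 887 and 1481 (0.51 ± 0.28), with overlapping groups.

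Snhg3 and Snhg6 were below control in both lactate libraries. Snhg3, host of the paired Snora73 genes, had 272 and 339 counts in control and 157 and 167 in lactate (-0.99 ± 0.17). Snhg6 had 415 and 670 counts against 248 and 451 (-0.71 ± 0.31). Exons of Snhg3 overlap Rcc1 on the same strand and the noncoding gene Gm17300 on the opposite strand. Gm17300 was counted at 286, 356, 164 and 175 in the same library order, close to the counts of Snhg3, and with no strand setting given the reads of the pair cannot be told apart. Snhg6 overlaps Mcmdc2 and Zfas1 overlaps Znfx1, each on the opposite strand.

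The other hosts did not separate by group. Snhg5 had the smallest log2 fold change, with 1187 and 1585 counts in control and 1244 and 1632 in lactate (-0.02 ± 0.17). Snhg12 had 455 and 577 counts against 477 and 734 (0.15 ± 0.21). Snhg8 had 97 and 181 against 82 and 247 (0.16 ± 0.50), and Zfas1 478 and 879 against 402 and 1086 (0.05 ± 0.45). The libraries numbered 2 had the higher CPM in both groups for all 9 hosts. For Snhg5, Snhg8, Snhg12 and Zfas1 this spread exceeded the difference between the group means in both groups. For Snhg1 and 2410006H16Rik it did so in lactate alone. Of the 9 hosts, 3 were below control without overlap, 1 above and 5 overlapped, against 25.9% below and 27% above among all genes.

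**Figure D1:**
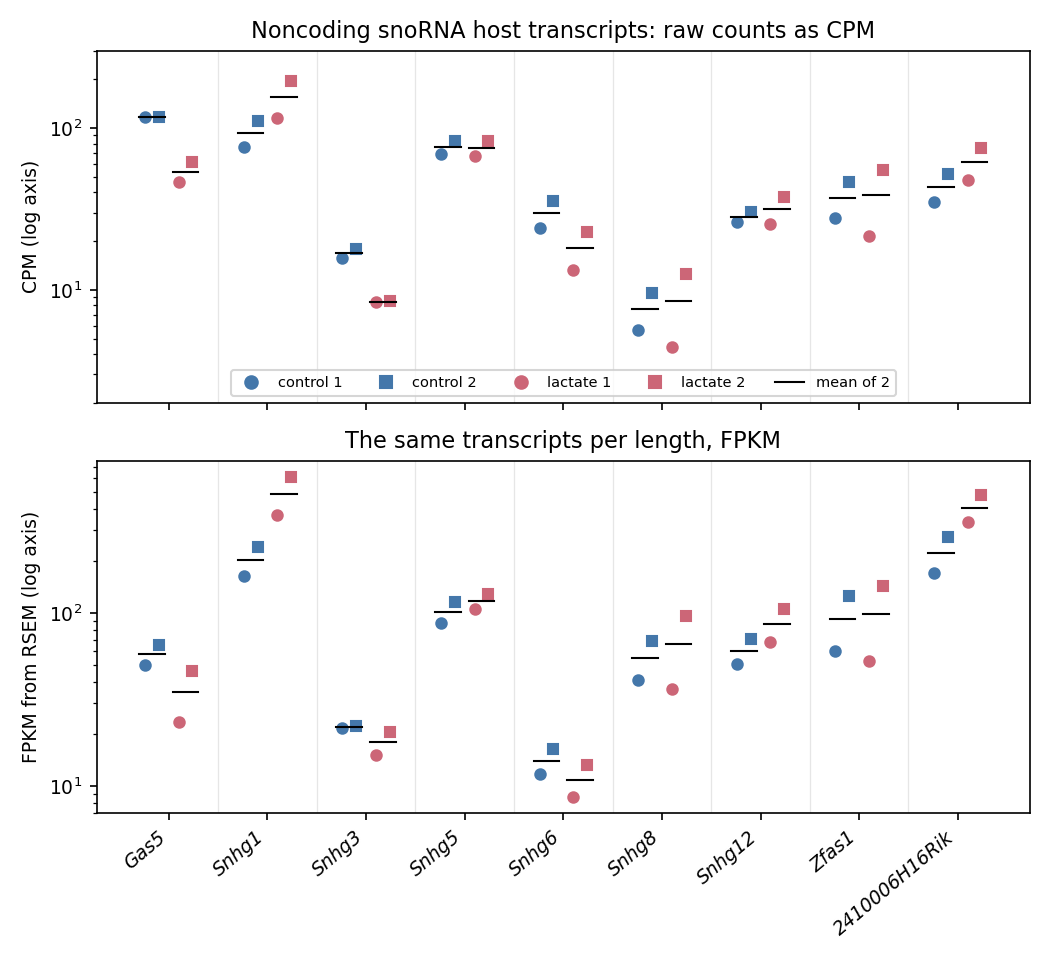
Levels of the 9 host transcripts in the 2 control (blue) and 2 lactate (red) libraries, as CPM from raw counts (upper, log axis) and as FPKM from RSEM (lower, log axis); circles are libraries 1, squares libraries 2 and bars group means. Gas5 fell from 117 to 53.7 CPM, while Snhg1 was higher in both lactate libraries, from 76.2 and 110 to 115 and 196 CPM.

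RSEM assigns reads to annotated transcripts, and it gave a different picture for some hosts. The raw counts are described as taken over annotated exons too, and why the scales differ was not tested. The expected counts of Gas5 were 807 and 921 in control and 248 and 321 in lactate, a log2 fold change of -1.70 ± 0.16, larger than on raw counts. Gas5 was called lower on this scale too, as were 0.109% of the 15595 genes tested (0.173% were called higher). Snhg1 had 1820 and 2681 expected counts against 2100 and 3553 (0.23 ± 0.26), and its groups overlapped. Snhg3 was left with 44.1, 37.1, 30.9 and 46.9 expected counts in the 4 libraries, with no separation (-0.16 ± 0.32), so that its lower raw count was not seen on this scale. For 2410006H16Rik, 379 and 668 expected counts in control and 743 and 1210 in lactate put both lactate libraries above control (0.81 ± 0.29). Snhg6 kept its direction (67 and 117 against 39 and 78; -0.74 ± 0.38). The changes of Snhg5, Snhg8, Snhg12 and Zfas1 were -0.04 ± 0.16, -0.01 ± 0.45, 0.06 ± 0.25 and 0.18 ± 0.53.

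The number of raw counts per expected count shows where the 2 tables part. Over 14147 genes its median was 1.18 to 1.19 in every library. Gas5 stood at 2.50 and 2.42 in control and 3.46 and 3.77 in lactate. In Snhg1 the ratio went from 0.724 and 0.780 to 1.02 and 1.09, and in 2410006H16Rik the opposite way, from 1.59 and 1.47 to 1.19 and 1.22. Snhg3 and Snhg6 held the highest ratios of the 9 in every control library (6.17 and 9.13, and 6.19 and 5.73), and those of Snhg6 hardly moved with lactate (6.36 and 5.78). Snhg3 stood at 5.08 and 3.56 in lactate. Snhg5, Snhg8, Snhg12 and Zfas1 overlapped between groups, at 0.843 to 1.53. With limma, no gene had a changed ratio at adjusted p under 0.05 (0% higher, 0% lower), and 832 had an unadjusted p under 0.05, Gas5, Snhg1 and 2410006H16Rik among them with log2 changes of 0.55 ± 0.10, 0.49 ± 0.06 and -0.33 ± 0.05.

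RSEM also reports each gene's length as the mean of its transcripts weighted by their estimated abundance, so a changed length means a changed estimate of the transcript mix. The length of Gas5 was 1349 and 1159 bases in control and 973 and 733 in lactate, 32.0% shorter. That of Snhg1 was 1023 and 986 against 678 and 663 bases, 33.2% shorter. These 2 of the 8 hosts with several transcripts were shorter by more than 1.2-fold with no overlap, as were 1.83% of 11573 genes. Snhg12 was shorter by less (870 and 827 against 720 and 724 bases), as were Snhg5, Snhg6 and Snhg8, by 4.79 to 11.0%. Zfas1 alone was longer without overlap (651 and 653 against 685 and 697 bases), Snhg3 overlapped, and 2410006H16Rik has 1 transcript of 462 bases.

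**Figure D2:**
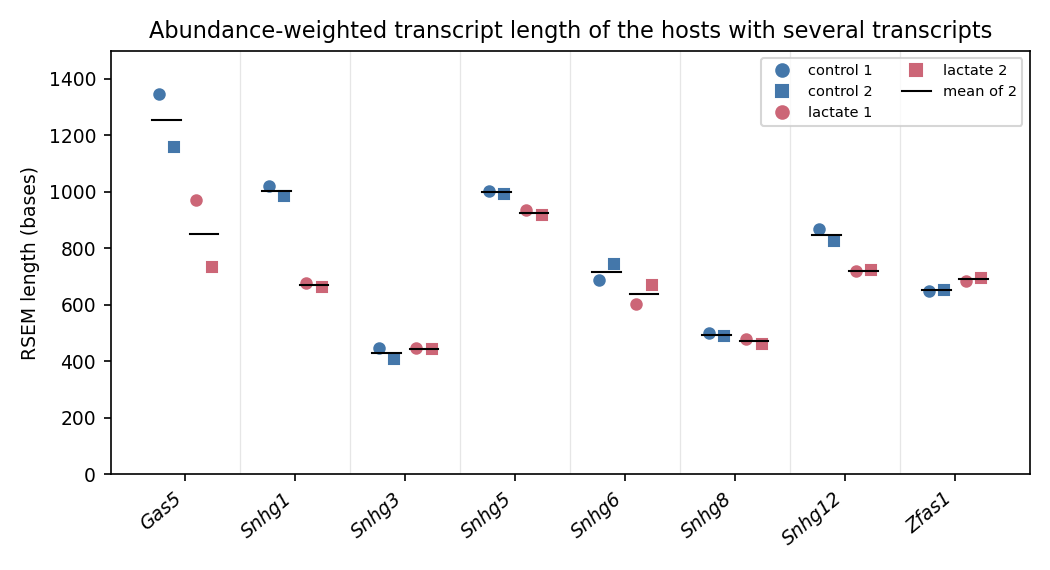
RSEM length in bases, weighted by estimated transcript abundance, of the 8 hosts with several transcripts, in control (blue) and lactate (red) libraries; circles are libraries 1, squares libraries 2, bars group means. Gas5 and Snhg1 were shorter in both lactate libraries by 32.0% and 33.2%, and Zfas1 longer by 5.95%.

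Levels of different hosts can be compared per length, as FPKM. In control, 2410006H16Rik (171 and 274 FPKM) and Snhg1 (164 and 239) were highest and overlapped. Snhg5 (87.8 and 115), Zfas1 (60.4 and 124), Snhg12 (50.3 and 70.4), Gas5 (49.9 and 65.5) and Snhg8 (40.8 and 69.0) followed, and no neighbours among them differed beyond their spread. Snhg3 (21.5 and 22.2) and Snhg6 (11.6 and 16.4) stood apart at the bottom. In lactate Snhg1 led with 366 and 611 FPKM, overlapping 2410006H16Rik at 334 and 477, and Gas5 was the lowest of the middle group at 23.5 and 46.2. Because FPKM divides by the length, shorter lengths raise it: Snhg1 changed by 1.25 ± 0.34 on the log2(FPKM + 1) scale against 0.23 ± 0.26 in expected counts, and Gas5 by -0.77 ± 0.36 against -1.70 ± 0.16. No gene was called on the log2(FPKM + 1) scale with limma. The lengths of Snhg3, Snhg8 and 2410006H16Rik, 409 to 500 bases, exceed by little the 308 to 328 bases by which RSEM shortened transcripts for fragment size, so their FPKM rest on a short stretch.

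Counts over the snoRNAs inside the hosts were lower with lactate almost throughout. Summed over all 33 snoRNAs, there were 2770 and 3285 counts in control and 1117 and 1358 in lactate. Of the 33, 32 had a negative log2 fold change and 29 lay below control in both lactate libraries, against the 25.9% of all genes. The edgeR rule called 7 lower and none higher, with 24 lower and none higher at an unadjusted p under 0.05, and DESeq2 called 14 lower and none higher. Over all 18661 genes tested, the edgeR rule called 65 lower (0.348%), 2125 were lower at an unadjusted p under 0.05, and DESeq2 called 168 lower. The median change was -1.25. RSEM gave these 33 genes 1 expected count in all, and each is shorter than the 308 to 328 bases taken off for fragment size. Of the 33, 28 overlap an exon of some host transcript. Reads of snoRNA, of retained introns and of unspliced host RNA cannot be told apart, so these counts are not a measure of mature snoRNA. In what follows, the counts and changes of a snoRNA are those of reads over its gene, whatever RNA they came from.

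The snoRNAs of Gas5 had the lowest median among the hosts. From the start of the gene, Gm26224 had 144 and 196 counts in control and 29 and 38 in lactate (-2.41 ± 0.24), Gm22489 184 and 153 against 52 and 34 (-2.05 ± 0.30), Gm22357 284 and 269 against 84 and 62 (-2.0 ± 0.24), and Gm23212 187 and 222 against 55 and 79 (-1.69 ± 0.22). All of these were called. Further along, Snord78 changed by -1.34 ± 0.23, Mir5117 (a snoRNA in the annotation despite its symbol) by -2.12 ± 0.43 and Snord80 by -2.08 ± 0.33, none of them called. The last in the gene, Snord47 (65 and 74 against 27 and 63) and Gm25789 (25 and 54 against 21 and 37), changed least, by -0.71 ± 0.37 and -0.52 ± 0.42, and Gm25789 overlapped between groups. The median of the Gas5 snoRNAs was -2.0, lower than the -1.12 of the host's own raw count.

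Snhg1 showed its snoRNAs and its own count moving in opposite directions. All 8 of its snoRNAs were below control without overlap. Gm24452 had 178 and 237 counts against 58 and 61 (-1.87 ± 0.21) and Gm25894 85 and 76 against 25 and 27 (-1.71 ± 0.25), and both were called. The others were Gm25855 (-1.35 ± 0.23), Gm24453 (-1.27 ± 0.43), Gm22744 (-1.33 ± 0.33), Gm22680 (-1.02 ± 0.44), Gm23246 (-0.84 ± 0.27) and Snord22 (-0.91 ± 0.19). The last 3 along Snhg1 changed least, as did the last 2 along Gas5, although in Gas5 Mir5117 and Snord80 lie beyond Snord78 and changed more than it. The rank correlation between distance from the gene start and log2 fold change was 0.60 over the 9 snoRNAs of Gas5 and 0.857 over the 8 of Snhg1, values that describe snoRNAs sharing the same libraries and host. In Zfas1 the snoRNA nearest the start, Gm25878, also had the largest decrease (48 and 66 against 9 and 15; -2.31 ± 0.33; called), with Gm23201 at -1.24 ± 0.39 and Snord12 at -1.25 ± 0.37. Snhg12 and 2410006H16Rik did not follow this order: the snoRNA nearest the start of Snhg12, Snora16a, changed least (-0.07 ± 0.69), and in 2410006H16Rik Snord49a, the next from the start, changed more than Snord49b.

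**Figure D3:**
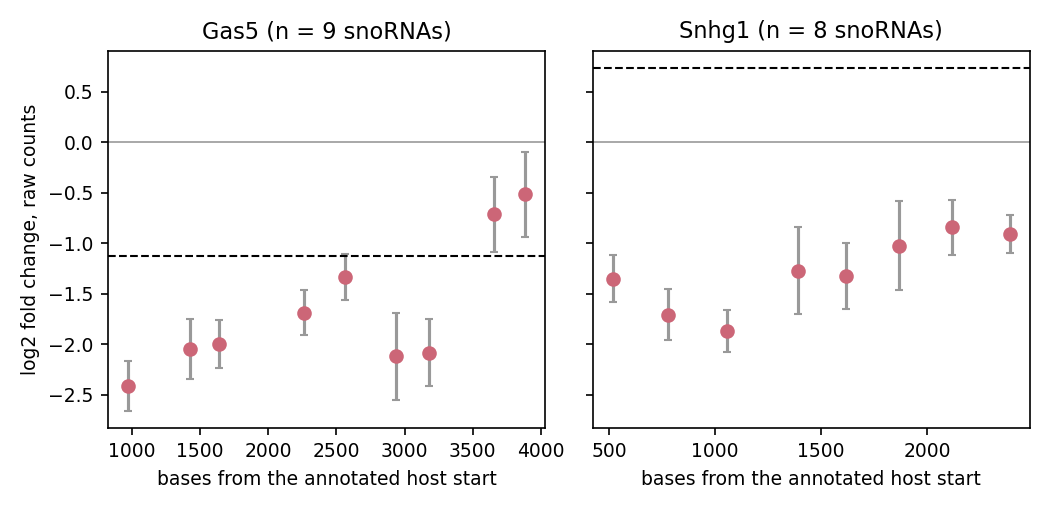
Log2 fold change (lactate against control, raw counts; bars are SE) of each snoRNA of Gas5 and Snhg1 against its distance in bases from the annotated start of the host; the dashed line is the change of the host's own raw count, -1.12 for Gas5 and 0.74 for Snhg1. The snoRNA nearest the start of Gas5 was at -2.41 and the last at -0.52.

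Among the other hosts, Snord49a of 2410006H16Rik, which guides methylation of the large ribosomal RNA, had 48 and 92 counts in control and 17 and 23 in lactate (-1.87 ± 0.37), Snord49b changed by -1.49 ± 0.34 and Snord65 by -0.66 ± 0.57. Snora73b and Snora73a of Snhg3 changed by -1.01 ± 0.28 and -1.04 ± 0.35, close to the -0.99 of their host. Snord87 of Snhg6 changed by -1.18 ± 0.43 and Snora24 of Snhg8 by -1.26 ± 0.37. The Snhg12 snoRNAs changed less: Snora44 by -0.73 ± 0.34, Snora61 by -0.60 ± 0.22, Snord99 by -0.55 ± 0.32, and Snora16a, at under 50 counts in all, overlapped between groups. In Snhg5, Snord50b had 28 and 39 counts against 16 and 29 (-0.65 ± 0.35) and Snord50a 18 and 16 against 15 and 27 (0.22 ± 0.38), the only positive value. The 21 snoRNAs with both boxes had a median change of -1.33 and the 6 with Snora symbols, the H/ACA class, -0.87. The other 6, in which the search found a D box but no C box, had -1.29. These differences were not tested.

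**Figure D4:**
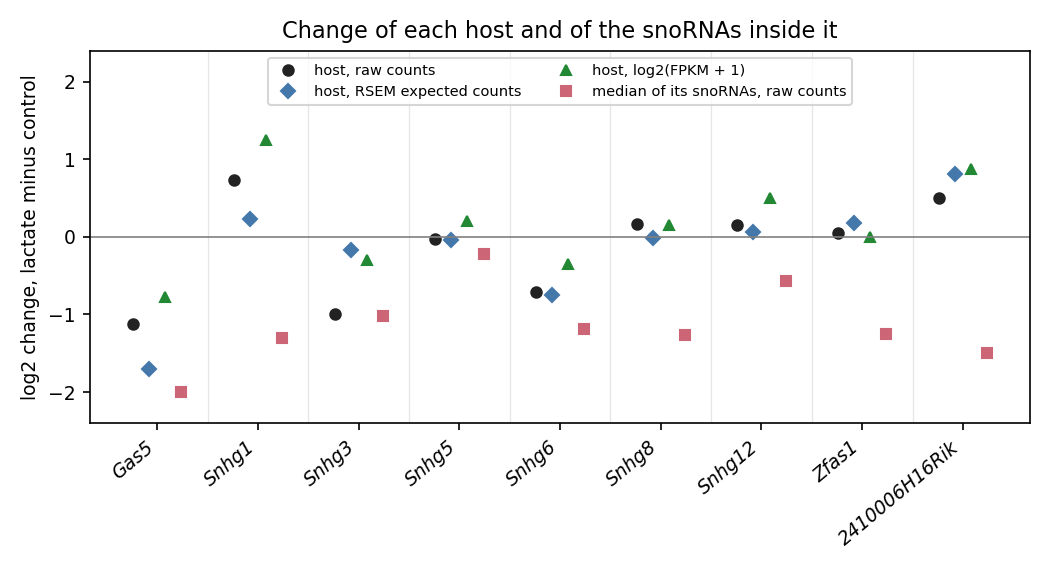
Log2 change between control and lactate of each host on raw counts (circles), expected counts (diamonds) and log2(FPKM + 1) (triangles), and the median log2 fold change of its snoRNAs on raw counts (squares). The squares lie below 0 for all 9 hosts, at -2.0 for Gas5 and -1.30 for Snhg1, while the host values lie on both sides of 0.

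Set against the host, snoRNA counts were lower in lactate for 8 of the 9 hosts. Per 100 host counts, 2410006H16Rik had 18.1 and 17.4 snoRNA counts in control and 3.95 and 4.59 in lactate (log2 change -2.04 ± 0.25). Snhg1 had 65.3 and 54.2 against 18.5 and 12.4 (-1.97 ± 0.30). These were 2 of the 4 hosts (4.55%) with a lower ratio at adjusted p under 0.05 in limma, among 88 hosts with enough counts. Gas5 had 57.6 and 54.8 against 41.3 and 33.3 (-0.60 ± 0.29), a smaller difference, with the host count lower as well. The snoRNAs of Gas5 all overlap an exon of some Gas5 transcript, so the same reads may be in both its counts. Those of 2410006H16Rik lie outside its exons. How reads over a snoRNA and its host were divided is not given, so the ratios may not be alike between hosts. Snhg8 went from 20.6 and 15.5 to 9.76 and 5.26, Snhg12 from 32.5 and 28.4 to 19.7 and 17.4, and Zfas1 from 63.8 and 35.8 to 33.6 and 10.5. Snhg5 (3.88 and 3.47 against 2.49 and 3.43) and Snhg6 (3.13 and 3.58 against 2.82 and 2.22) differed little, and Snhg3 overlapped (40.1 and 50.4 against 36.3 and 52.7). Over all 88 hosts, 49 were below control in both lactate libraries.

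**Figure D5:**
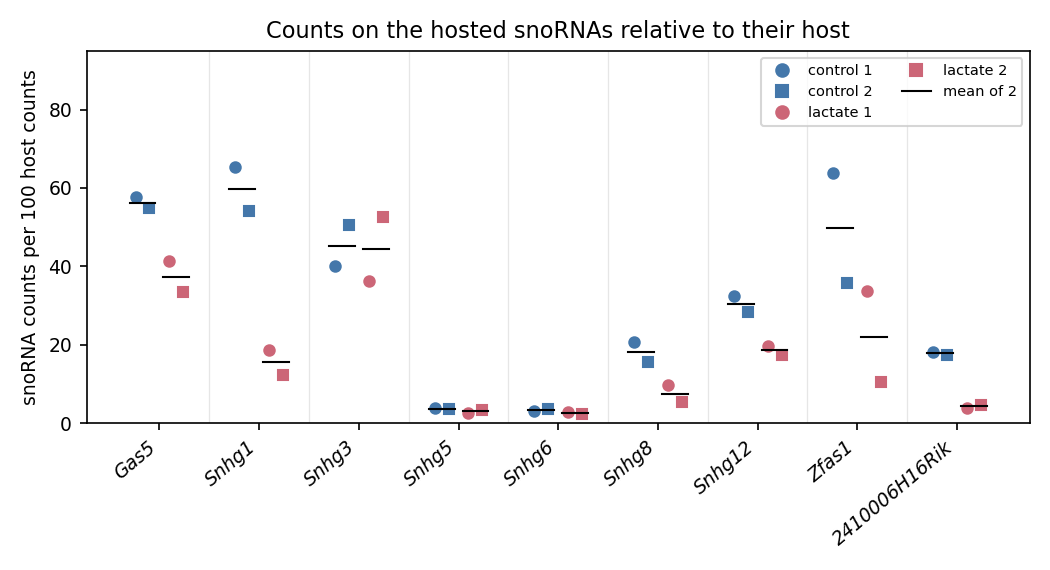
SnoRNA counts per 100 counts of the host, in control (blue) and lactate (red) libraries; circles are libraries 1, squares libraries 2, bars group means. 2410006H16Rik went from 18.1 and 17.4 to 3.95 and 4.59 and Snhg1 from 65.3 and 54.2 to 18.5 and 12.4, while Snhg3 overlapped.

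The medians of snoRNAs elsewhere were closer to 0. The 134 tested snoRNAs of protein-coding hosts had a median log2 fold change of -0.51, with 112 lower. Of these 134, 68 were below control without overlap, against 25.9% of all genes, and 1 was called lower, against 0.348%. Host class followed the annotated type of the host gene, which put Snhg4 with the protein-coding hosts and Cct6a with the other noncoding ones. Snhg4 is also in the list of other noncoding host transcripts below. The 17 tested snoRNAs of hosts classed as other noncoding had a median of -0.50 with 13 lower, and the 10 outside any host -0.05 with 5 lower and 5 higher. None of these last 2 groups was called by edgeR or DESeq2, with 5 of the former lower and 2 of the latter higher at an unadjusted p under 0.05 in edgeR. At that level 2125 of all 18661 genes tested were lower and 2186 higher. The difference between these medians and the -1.25 of the 33 was not tested, since the 33 were chosen with results of these libraries known.

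Of 11 other noncoding host transcripts tested, none was called by edgeR or DESeq2, 2 had an unadjusted p under 0.05, and the median was -0.07. Among all 18661 genes tested in edgeR, 2186 were higher and 2125 lower at that level. Dancr had 141 and 174 counts against 79 and 127 (-0.69 ± 0.25), and Snhg17 990 and 1406 against 1513 and 2133 (0.53 ± 0.20). Rian changed by -0.30 ± 0.14 and Snhg11 by 0.31 ± 0.14. Among 49 protein-coding hosts 1 was called lower, against 0.348% of all genes, and none higher. It was Hspa8, the constitutive heat shock cognate chaperone, which fell from 3511 ± 180 to 1133 ± 89.9 CPM (-1.63 ± 0.16, edgeR adjusted p = 0.0320). The smallest p-values after it belonged to the nucleolar genes Ppan (-0.64 ± 0.13) and Gnl3 (-0.44 ± 0.13) and to Cfdp1 (-0.57 ± 0.17). The 84 ribosomal protein genes, which share the TOP tract, had a median of -0.02 with none called by either tool and 2 at an unadjusted p under 0.05.

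Among the genes that act on host transcripts and on snoRNAs, none met the call rule. Of all 18661 genes tested in edgeR, 2186 were higher and 2125 lower at an unadjusted p under 0.05. Of 18 genes for proteins of the snoRNA particle and its assembly, 15 had negative changes (median -0.21), none was called by edgeR or DESeq2, and 7 had an unadjusted p under 0.05. They included Nhp2, a core H/ACA protein (-0.60 ± 0.14), the assembly factor Nufip1 (-0.49 ± 0.13) and the helicase subunits Ruvbl2 (-0.57 ± 0.15) and Ruvbl1 (-0.66 ± 0.23). Of 20 NMD factors none was called by either tool, 5 had an unadjusted p under 0.05, and the median was 0.01. Rbm8a and Rnps1, which act at exon junctions, were at -0.67 ± 0.16 and -0.54 ± 0.13, with Upf3a at -0.44 ± 0.13 and Smg8 at -0.38 ± 0.14. Of 14 TOP and mTORC1 regulators none was called by either tool and 2 had an unadjusted p under 0.05, Larp1b (-0.75 ± 0.17) and Eif4ebp1 (0.37 ± 0.13). Tial1 was at 0.27 ± 0.14 and Rptor at -0.24 ± 0.13.

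The lists that follow were chosen with earlier results of these data known, so nothing is read from their calls. Of 17 transcripts known as NMD targets, 3 were called higher by edgeR, against 0.552% of all genes. DESeq2 called 4 higher, against 190 among all genes. The 3 are also stress response genes: Trib3 (2.13 ± 0.21), Ddit3 (1.33 ± 0.16) and Atf3 (2.49 ± 0.33). Gadd45a stood just outside the threshold (1.10 ± 0.17, edgeR adjusted p = 0.0506), and the median of the list was 0.09. Of 9 genes for the glucocorticoid receptor and its targets, 1 was called higher, against 0.552% of all genes. This was Tsc22d3, from 39 and 56 counts to 178 and 262 (2.13 ± 0.26, edgeR adjusted p = 0.0406). Sgk1 was at 0.84 ± 0.14, Dusp1 at -0.53 ± 0.18 and Per1 at -0.35 ± 0.17, and the median was -0.17. The genes whose centred log2 CPM profile over the 4 libraries lay nearest to that of Gas5, among 10220 genes with a mean above 10 CPM, were Slco4a1 (root mean square difference 0.0498), Aurkb (0.0658), Def6 (0.0675), Mob3a (0.0700) and Agfg2 (0.0757). Their log2 fold changes ran from -1.25 for Slco4a1 to -1.02 for Agfg2.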

How the data were processed

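Libraries were made from total RNA with a TruSeq RNA kit. The authors trimmed reads with cutadapt 1.16, mapped them with STAR to mm10 with GENCODE M23, and deposited raw counts per gene, described as STAR GeneCounts. That matrix also held 1153 rows of transposable elements (7.36 to 9.41% of counts), left out here. Snord80 and Snora16a, each annotated as 2 overlapping genes, had equal nonzero counts in both entries and were used once, so a read could count for several genes; how reads over a snoRNA and its host were divided is not given. The authors' deposited RSEM tables give expected counts, TPM, FPKM and abundance-weighted lengths.

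Members and lists were chosen with earlier results of these data known. Hosts were matched by symbol and snoRNAs lying inside them on the same strand by the GENCODE M21 annotation, which has 55154 gene IDs against 55335 in the files. Raw counts were tested with edgeR 4.0.16 (quasi-likelihood, TMM, filterByExpr; R 4.3.3), lactate against control over the 4 libraries, with Benjamini-Hochberg adjustment; called means adjusted p under 0.05 and over 2-fold. Expected counts were rounded and tested likewise. limma 3.58.1 was used for log2(FPKM + 1), for log2 ratios of raw to expected counts (pseudocount 1, at least 10 of both in every library, centred on the library median) and for log2 ratios of snoRNA to host counts, a comparison chosen after seeing the data. DESeq2 1.42.0 was an alternative. Scripts were tested on simulated data. Named genes were the 9 hosts, hosted snoRNAs with at least 50 counts in all, the called members and the up to 4 members with the smallest p-value of each list, and the 5 genes most like Gas5; Snora16a, Gm17300, Rcc1, Mcmdc2 and Znfx1 were named after their values were seen. Lists covered other noncoding and coding hosts, ribosomal proteins, snoRNA particle proteins, NMD factors and targets, TOP regulators, glucocorticoid receptor targets, mESC markers and feeder markers. P-values set the difference between groups against the spread between the libraries of a group, moderated over genes. That spread may be technical. An exact permutation test of 2 against 2 cannot go below 0.333, so none was used for single values.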

Additional observations from a re-analysis of the deposited data

How the results depend on the processing

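The 9 hosts and 33 snoRNAs kept the directions given above in most settings, and the counts of calls did not hold. On raw counts 168 genes were called, against 358 with DESeq2, 807 with no filter on low counts and 1156 with the replicate number as a block. Hosts called went from 1 to 2 with DESeq2 and with no filter (Gas5 and Snhg3) and to 0 with library totals alone (Gas5 adjusted p = 0.0575) and with at least 10 counts in every library (0.0509), both edgeR. Hosted snoRNAs called went from 7 to 14 with DESeq2, 19 with no filter, 4 of 28 tested with at least 10 counts in every library, and 22 with the block. Leaving out each library in turn gave 84 to 869 genes, 0 to 2 hosts and 6 to 20 snoRNAs called, and medians of -0.78 to 0.36 for the hosts and -1.61 to -1.0 for the snoRNAs. Gas5 ranged from -1.35 to -0.96 and lost its call without control 1 (edgeR adjusted p = 0.0825) and without lactate 1 (under 2-fold); 30 to 33 of the 33 snoRNAs were lower each time. Without lactate 1 Snhg1 and Snhg3 were called, and without lactate 2 Snhg6 was.

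Directions turned for Snhg5 with library totals alone (0.043), and for Zfas1 with the block (-0.0037) and with its snoRNA counts added (-0.27, chosen after seeing the data; Snhg1 was then at 0.27 ± 0.26). Without 1 library each, Snhg5 ranged from -0.19 to 0.12, Snhg8 from -0.79 to 0.70, Snhg12 from -0.15 to 0.36 and Zfas1 from -0.78 to 0.55, so the direction of these 4 rests on single libraries. Snhg1 ranged from 0.30 to 1.04, 2410006H16Rik from 0.14 to 0.82, Snhg6 from -1.16 to -0.40 and Snhg3 from -1.10 to -0.90. On expected counts 44 genes were called, against 596 with no filter, 933 with the block, 171 to 309 without 1 library each, and 0 on log2(FPKM + 1), log2(FPKM + 0.1) and log2(TPM + 1), where 0 hosts were called; otherwise 1 to 2 hosts were, with a median of -0.44 to 0.34. The ratio of raw to expected counts had 0 called genes in each setting. A lower snoRNA count per host count held in 4 hosts, 2 of them among the 9, against 9 and 4 with the block and 3 to 11 and 1 to 4 without 1 library each; Snhg1 lost its call without control 1, and 2410006H16Rik was called each time. With no minimum change, 6 of 8 hosts had shorter lengths, as did 14.4% of genes. The cause of these differences was not tested. The replicate numbers are shared between groups, but nothing says that they mark a common culture; deviations from the group means correlated at 0.638 across 18661 genes over the 2 pairs, and every result above is from the fit without the block. Depth limits the snoRNAs, with 48 to 699 counts each over the 4 libraries, and the expected counts of Snhg3, with 30.9 to 46.9 a library.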

Other observations

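Outside the 9 hosts, the ratio of snoRNA to host counts was lower at adjusted p under 0.05 in limma in 2 others, named after their values were seen. Rpl3, a ribosomal protein gene, had 0.776 and 0.675 snoRNA counts per 100 host counts in control and 0.270 and 0.181 in lactate (log2 change -1.70 ± 0.39). The noncoding gene AI506816 had 3.70 and 3.90 against 0.859 and 1.34 (-1.67 ± 0.29), at 19 and 24 snoRNA counts against 5 and 8. Hspa8, called lower itself, had 109 and 107 snoRNA counts against 36 and 39, and its ratio overlapped between groups (0.186 and 0.155 against 0.162 and 0.185). The RSEM length of Dancr, another noncoding host, was 847 and 910 bases in control and 694 and 736 in lactate.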
